A study of Homo sapiens with 4 samples.

Results

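In TMD8 lymphoma cells, 475 stretches of open chromatin lost most of their signal after the transcription factor gene IRF4 was silenced. They are called closed sites here, although none was at 0 reads. They were chosen from ATAC-seq read counts in 73135 intervals, each an authors' peak counted in 4 libraries. A closed site is an autosomal interval with at least 3 CPM (its reads for every 1000000 reads counted over all intervals of that library) in both control libraries, and with its higher shIRF4 CPM below 0.4 times its lower control CPM. Of the 58664 autosomal intervals at 3 CPM or more in both controls, called eligible intervals here, 475 met the rule (0.810%). Because the rule used the control and shIRF4 levels, those levels are given below as a description and without a test. Position, width and the intervals beside the sites did not enter it.

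IRF4 is a transcription factor of B cells and plasma cells that binds DNA weakly by itself. It binds together with an ETS factor such as PU.1 or SPIB, or with a BATF and JUN pair, at composite elements, and at high levels at interferon-stimulated response elements. Many of these elements lie in enhancers far from gene starts, and diffuse large B cell lymphoma of the activated B cell-like (ABC) type is known to depend on IRF4.

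TMD8 is an established cell line of that lymphoma type, and the labels give it as ABC. The 2 control libraries came from TMD8 cells given a scrambled short hairpin RNA (shRNA), and the 2 shIRF4 libraries from TMD8 cells given an shRNA against IRF4. The titles write shIRF4 and the library names siIRF4, and no dose, vector or time after silencing is given. Nothing says that the libraries of a group came from separate cultures, so p-values measure the spread between these libraries, which may be technical.

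Total counts were 12152153 and 13609123 in the controls and 17954924 and 9112860 in shIRF4. Among B cell markers, the intervals within 1 kb of a gene end summed, over the 4 libraries, to 86.7 to 112 CPM at CD79B, 84.3 to 91.8 at PAX5, 72.2 to 83.8 at CD79A, 49.7 to 57.6 at MS4A1 and 11.5 to 12.9 at BLK, and CD22 had no such interval. Summed over a whole marker list, such intervals gave 77.9 to 82 CPM for T cell markers, where CD3D, CD3G, CD2 and CD4 had no such interval, 34.3 to 40 for myeloid, 12.8 to 14 for epithelial and fibroblast and 5.5 to 8.6 for NK cell markers. The interval at the start of IRF4 itself (chr6:390678-394420) stood at 51.3 and 55.1 CPM in the controls and 55.4 and 50.6 CPM in shIRF4, with a log2 fold change of -0.05 (SE 0.07, edgeR adjusted p = 0.684). An shRNA acts on RNA, so this accessibility does not check the silencing. None of the 15 tested intervals assigned to IRF4 was a closed site, and 2 of them were lower in shIRF4 by the edgeR test, against 15.5% of all tested intervals.

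Only promoter sequence could be set beside these data, and it touched 1 site, which is shown because the site covers bases just before a gene start. The site chr18:9065826-9067318 (hg38) covers 216 bases of the 300-base promoter window of the long noncoding RNA gene LOC124904243 (RefSeq, GRCh38.p14, chr18:9065742-9066041, minus strand). The window is printed 5′ to 3′ along the gene, with the bases inside the site in capitals. For contrast, the windows of TNFAIP3 (chr6:137867009-137867308, plus strand) and BACH2 (chr6:90296794-90297093, minus strand) follow in lower case, since each of these genes holds or neighbours 2 closed sites while the interval over its start did not pass the test.

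LOC124904243: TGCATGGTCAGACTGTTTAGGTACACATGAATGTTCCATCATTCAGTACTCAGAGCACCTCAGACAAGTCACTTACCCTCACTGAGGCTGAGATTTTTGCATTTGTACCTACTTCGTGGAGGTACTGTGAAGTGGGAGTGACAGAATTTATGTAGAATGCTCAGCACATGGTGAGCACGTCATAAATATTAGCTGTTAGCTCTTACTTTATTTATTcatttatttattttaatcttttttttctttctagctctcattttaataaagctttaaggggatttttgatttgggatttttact
TNFAIP3: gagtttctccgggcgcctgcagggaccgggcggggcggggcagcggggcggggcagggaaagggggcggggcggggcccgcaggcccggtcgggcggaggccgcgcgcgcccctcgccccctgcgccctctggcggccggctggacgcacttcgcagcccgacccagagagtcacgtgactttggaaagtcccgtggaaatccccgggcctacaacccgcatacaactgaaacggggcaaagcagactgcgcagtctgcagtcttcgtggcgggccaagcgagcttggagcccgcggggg
BACH2: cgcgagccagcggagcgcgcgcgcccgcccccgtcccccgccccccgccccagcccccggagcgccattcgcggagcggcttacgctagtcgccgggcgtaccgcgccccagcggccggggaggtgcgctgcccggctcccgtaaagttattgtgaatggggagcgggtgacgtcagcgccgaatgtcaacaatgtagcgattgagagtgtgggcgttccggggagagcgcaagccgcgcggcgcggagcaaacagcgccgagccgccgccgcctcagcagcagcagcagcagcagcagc

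The LOC124904243 window had 36% G and C and 2 CpG dinucleotides. Among all 35116 promoter windows the median was 58.7% with 14 CpG dinucleotides, and 5.34% of windows had a lower G and C share. TNFAIP3 had 73.7% with 35 CpG dinucleotides and BACH2 73.3% with 45. Each window was searched on both strands for 6 motifs, written with N for any base. They were the interferon-stimulated response element core, a pair of GAAA with 2 bases between (in 3.57% of all windows), the ETS-IRF composite, GGAA and then GAAA with 2 bases between (2.82%), AP-1 (TGANTCA, 7.71%), a longer AP-1-IRF composite, TGANTCA and then GAAA with 4 bases between (0.114%), a shorter one, GAAA and then TGANTCA with 1 base between (0.0968%), and the octamer (ATGCAAAT, 1.77%). Both AP-1-IRF composites contain the AP-1 motif. None of the 6 was found in the 3 windows. These letters being missing from a window says nothing about the factors. The sequences of the other 474 sites were not analysed here.

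At the closed sites the mean control level had a median of 6.47 CPM (quartiles 4.52 and 11.2) and the mean shIRF4 level a median of 1.82 CPM (1.24 and 3.2). Over the eligible intervals the medians were 7.83 and 7.57 CPM. Relative to interval length, the closed sites were above the typical interval in the controls, where the rule set a floor. Their CPM per kb stood at the 71.8th percentile of all intervals at the median, and at the 0.945th percentile in shIRF4. In the controls the median was 16.2 CPM per kb, against 13.3 over the eligible intervals. Both shIRF4 libraries lay below both controls at each site, which the rule sets. The same held at 30.6% of eligible intervals. The edgeR test called 475 of 475 sites lower, against 15.5% of all tested intervals, and nothing is read from this since the rule used the same contrast.

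**Figure D1:**
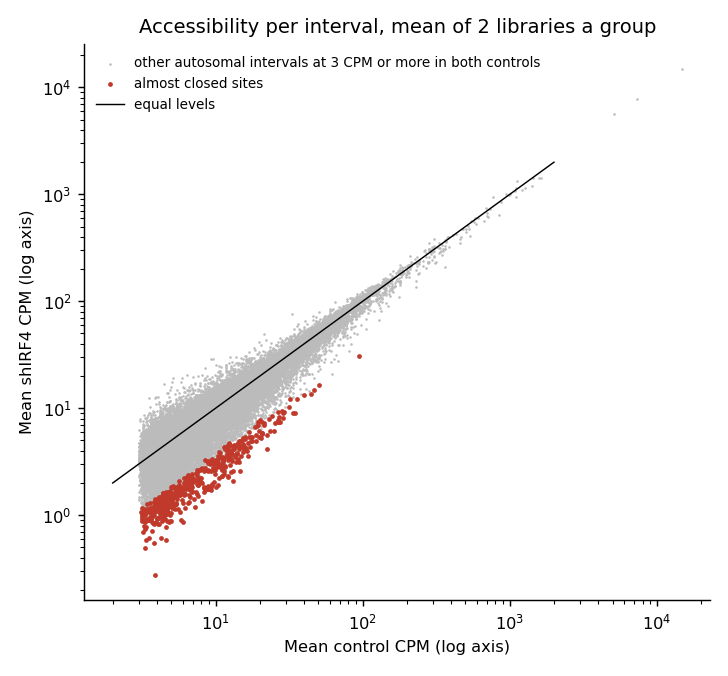
Mean shIRF4 CPM (vertical, log axis) against mean control CPM (horizontal, log axis) for the eligible intervals, with 2 libraries per group. The 475 closed sites (red) lie below the line of equal levels by the rule, most of them under 10 CPM in the controls, with 34 at 20 CPM or more.

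The ratio used by the rule, the higher shIRF4 CPM over the lower control CPM, had a median of 0.346 and a lowest value of 0.0968. It was below 0.3 at 113 sites and below 0.2 at 11, and at 223 sites it was 0.35 or more, near the threshold. As a fold of the group means, the controls exceeded shIRF4 by a median of 3.44-fold, from 2.57-fold to 14.1-fold. The counts behind these values were small: medians of 79 and 88 reads a site in the controls and of 31 and 17 in shIRF4, with as few as 2. At 28 sites both shIRF4 libraries were under 1 CPM. The shallower shIRF4 library, replicate 2, was above replicate 1 at 315 of the 475 sites, with a median ratio of 1.11 between them, against 0.985 over the eligible intervals.

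The mirrored rule, with the roles of the groups exchanged, found 71 opened sites among 58720 intervals (0.121%). Applied to 1 library against another, the thresholds were met by 997 to 1396 intervals from a control to an shIRF4 library (1.64 to 2.27%), by 249 to 476 from shIRF4 to control, and by 0 to 11 between libraries of the same group. Sites were then chosen in 1 control and 1 shIRF4 library and measured in the other pair, which the choice had not used. The 1379 chosen in the replicates numbered 1 had a median ratio of 0.325 there and of 0.416 in the replicates numbered 2, where 99.6% were below 1 and 44.6% below 0.4. The 1037 chosen in the replicates numbered 2 went from 0.335 to 0.36 in the replicates numbered 1, where 99.7% were below 1 and 59.8% below 0.4. Thus the direction held at nearly all intervals of both sets in the pair that did not choose them, while the loss was smaller there. Each set held the 475 closed sites, which meet the thresholds in both pairs by the rule. The share below 1 over all intervals is not given here. With 1 library a group these values carry no test. When the rule asked for less, without shIRF4 replicate 1 or without shIRF4 replicate 2, 735 and 1064 sites met it.

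The closed sites were narrow. Their median width was 411 bp (quartiles 292 and 642 bp, from 149 to 2414 bp), against 657 bp over the eligible intervals. Of the eligible intervals under 300 bp, 2.13% were closed sites (122 of 5724, exact 95% binomial interval 1.77 to 2.54%), and the share went down through every wider class to 0.0631% (5 of 7922, 0.0205 to 0.147%) at 1500 bp or more. The binomial intervals treat the eligible intervals as independent draws, which sites standing in runs are not, so they may be too narrow. By baseline level the share stayed between 0.815 and 1.16% in the 5 classes under 20 CPM, and was 0.342% (32 of 9346) at 20 to 50 CPM and 0.0682% (2 of 2933) at 50 CPM or more. At the opened sites of the mirrored rule the share also went down with width, from 0.269% under 300 bp to 0.0126% at 1500 bp or more.

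The sites lay far from the ends of protein-coding genes. The nearest end of a protein-coding gene was 38.7 kb away at the median, against 11.7 kb for the eligible intervals. Of the intervals within 1 kb of a gene end 0.118% were closed sites (14 of 11817, 0.0648 to 0.199%), and the share went up through each class of distance to 1.84% (140 of 7618, 1.55 to 2.17%) beyond 100 kb. Within a width class the order was the same: for intervals under 500 bp the share went from 0.981% within 1 kb to 2.08% beyond 100 kb, for those of 500 to under 1000 bp from 0.126 to 1.93%, and for those of 1000 bp or more from 0 of 7611 to 0.538%. The opened sites showed a like order, from 0.0338% within 1 kb to 0.245% beyond 100 kb.

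**Figure D2:**
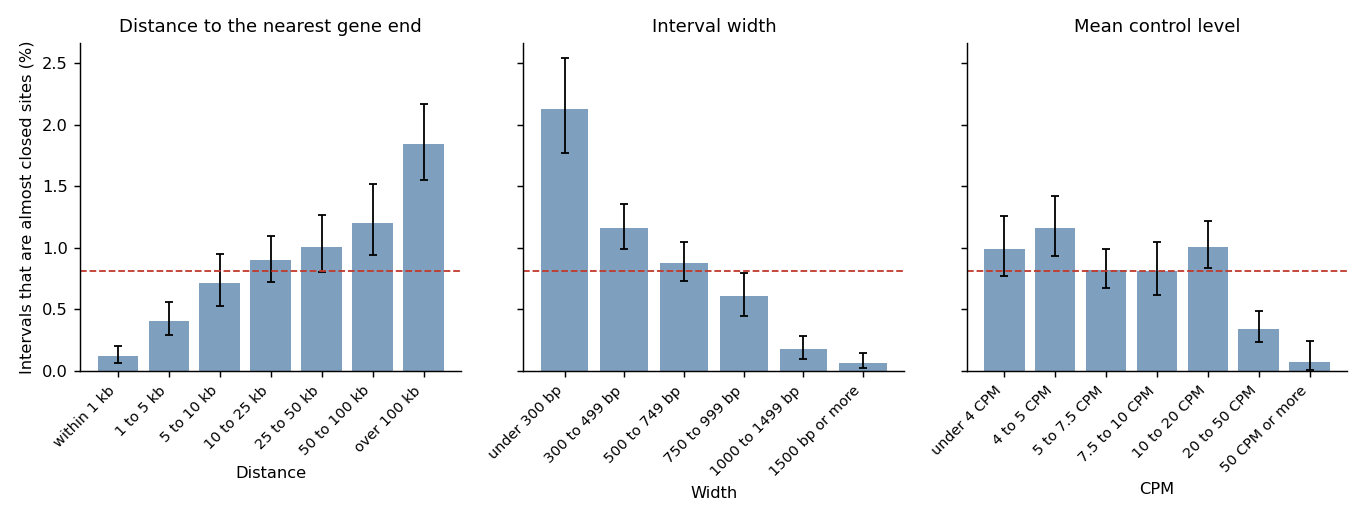
Share of eligible intervals that are closed sites, by distance to the nearest protein-coding gene end, by interval width and by mean control CPM. Bars give the percentage, error bars the exact 95% binomial interval and the dashed line the share over all eligible intervals, 0.810%. The share goes up with distance, from 0.118% to 1.84%, and down with width, from 2.13% to 0.0631%.

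Inside a protein-coding gene lay 44.8% of the sites (213), against 55.4% of eligible intervals, and the genes around them were long, with a median of 138 kb against 68.4 kb. Outside genes but within 100 kb lay 32% (152), against 35.2%. The remaining 23.2% (110) had no protein-coding gene within 100 kb, against 9.41%. Gene models with exons were not used here, so exons and introns are not told apart. Between chromosomes the share of eligible intervals that were closed sites ran from 1.42% on chromosome 4 (28 of 1978) to 0.0779% on chromosome 19 (4 of 5133). Among intervals over 10 kb from a gene end the shares were 1.88% on chromosome 4 (24 of 1274) and 0.0673% on chromosome 19 (1 of 1485).

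Gene starts were nearly absent from the sites. Only 14 sites (2.95%, 1.62 to 4.9%) lay within 1 kb of a gene end, against 20.1% of eligible intervals, and 13 of these were nearer the end of transcription. The exception was at NOTCH4, which encodes a Notch receptor. Among the other eligible gene-end intervals of known strand, 8151 of 9570 (85.2%) were nearer the start. A promoter window was overlapped by 1 of 452 sites (0.221%), the LOC124904243 window above, against 18.8% of eligible intervals, with chromosome 8 left out because the promoter table had no window there. No hairpin of a microRNA overlapped a site.

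Among the 10 gene-end sites with the highest control level, 3 are given in full. The site inside CTBP2, which encodes a transcriptional corepressor (chr10:124988675-124989524), lay 910 bp from an end of ZRANB1 and 4782 bp from an end of CTBP2. This site had 20.8 and 20.7 CPM in the controls and 4.46 and 7.02 CPM in shIRF4. That at NAT10, an RNA acetyltransferase gene (chr11:34145715-34146588), had 18.6 and 17 CPM and then 4.46 and 5.38 CPM. That at NOTCH4 (chr6:32224643-32225040) had 6.25 and 6.69 CPM and then 1.45 and 2.41 CPM. The control libraries lay close together at all 3, and at CTBP2 and NOTCH4 the shIRF4 libraries were over 1.5 times apart. The others were assigned to GEN1, EXOC2, TMEM214, INTS7, CD8A, TSPEAR and PTCD2. Their mean control levels ran from 4.29 to 16 CPM and their mean shIRF4 levels from 1.35 to 5.36 CPM. The site inside TSPEAR lay 646 bp from an end of KRTAP10-3 and 59251 bp from an end of TSPEAR.

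Of the 475 sites, 365 were assigned to 339 protein-coding genes by position, which does not show which gene a site acts on. Most genes had 1 site (314), 24 had 2, and SNAP47 had 3. Sites seldom stood together: 437 had no other site within 25 kb, and 38 formed 18 runs, of which 2 held 3 sites. Genes with 2 sites included RNF213, a ubiquitin ligase gene, PIK3R1, which encodes the regulatory subunit of PI3-kinase, and EZH1, which encodes a histone methyltransferase of Polycomb repressive complex 2.

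SNAP47 encodes a protein of the SNAP family, which acts in membrane fusion, and held the closed site with the highest level. That site (chr1:227744269-227746682, inside the gene) had 90.8 and 98.9 CPM in the controls and 29 and 32.4 CPM in shIRF4, a mean of 94.9 ± 5.7 against 30.7 ± 2.41 (SD, n = 2), or 3.09-fold. The next site (chr1:227750482-227752684) had 32 and 32.6 CPM and then 11.8 and 12.7 CPM, and the third (chr1:227758114-227758871) had 17.6 and 17.8 CPM and then 5.24 and 5.49 CPM. At all 3 the spread within a group was small against the gap between groups, a gap which the rule sets. Of the 13 other tested intervals assigned to SNAP47, 11 were lower and 0 higher by the edgeR test, against 15.0% lower and 7.31% higher over all tested intervals that are not sites. The strongest of these (chr1:227726778-227734309) went from 130 and 130 CPM to 61.8 and 70.8 CPM, a log2 fold change of -1.03 (SE 0.07, edgeR adjusted p = 4.69e-10). An interval of 442 bp between the first and second sites (chr1:227749929-227750370) stood at 3.62 and 3.97 CPM and then 4.18 and 3.29 CPM and did not pass (log2 fold change -0.03, SE 0.21, edgeR adjusted p = 0.949).

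The loss at EZH1 lay toward 1 end of the gene. Its stronger site (chr17:42704453-42705698, 4800 bp from the nearest gene end) had 46.7 and 47 CPM in the controls and 12.8 and 17 CPM in shIRF4. The other (chr17:42709340-42710015) had 13.4 and 14.8 CPM and then 3.62 and 4.06 CPM. Each of the 3 other intervals within 2788 bp of a site was lower, with log2 fold changes of -1.10, -0.66 and -1.43. In contrast, the interval 179 bp from the far end of the gene (chr17:42744317-42745406) stood at 26.4 and 26 CPM and then 27.7 and 25.3 CPM (log2 fold change -0.02, SE 0.09, edgeR adjusted p = 0.912).

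**Figure D3:**
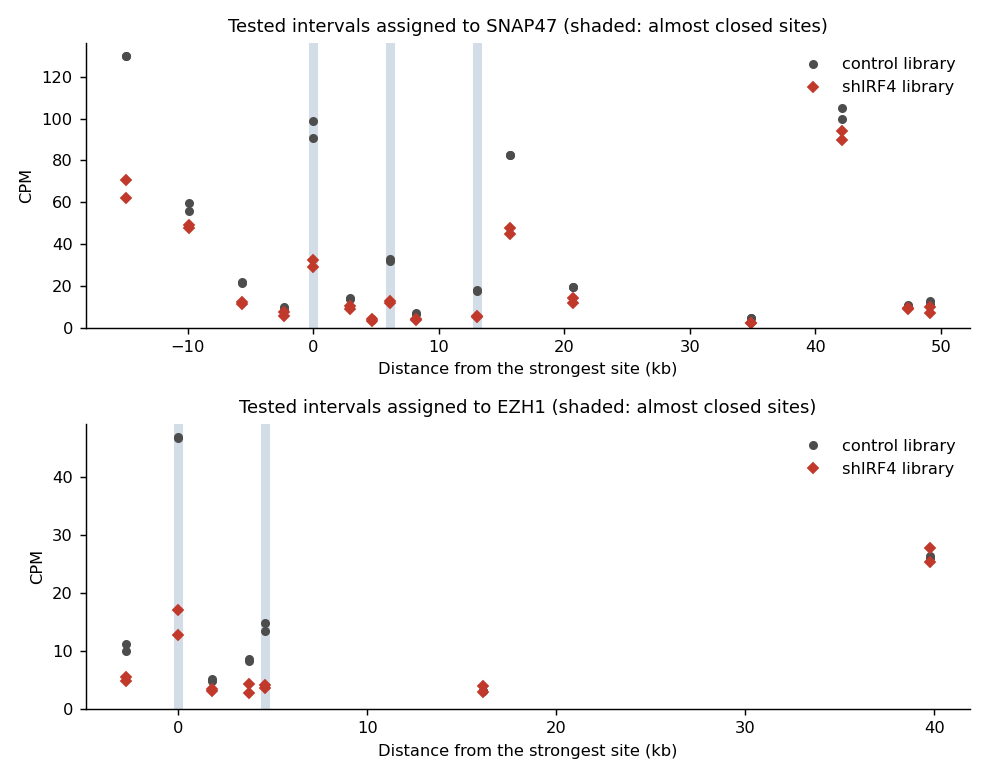
CPM in each library at every tested interval assigned to SNAP47 (upper) and EZH1 (lower), by distance in kb from the strongest site of the gene. Grey circles are the 2 control and red diamonds the 2 shIRF4 libraries, and shading marks the closed sites. At EZH1 the libraries of both groups overlap at the interval about 40 kb away and separate around the shaded sites.

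The other run of 3 sites lay on chromosome 7 with no protein-coding gene within 100 kb. Its middle site (chr7:52911532-52912476) had 26.6 and 27.2 CPM in the controls and 6.02 and 10.4 CPM in shIRF4. The sites on either side (chr7:52909785-52910646 and chr7:52916987-52917450) had mean control levels of 11 ± 0.217 and 5.08 ± 1.02 CPM and mean shIRF4 levels of 2.32 ± 0.445 and 1.16 ± 0.379 CPM (SD, n = 2). The next interval on 1 side (chr7:52918083-52918489) did not pass, with 4.86 and 5.44 CPM and then 4.62 and 4.06 CPM (log2 fold change -0.27, SE 0.19, edgeR adjusted p = 0.328). The next on the other side (chr7:52903713-52904062) fell, from 4.69 and 5 CPM to 2.17 and 2.19 CPM (log2 fold change -1.20, SE 0.22, edgeR adjusted p = 0.000282).

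The remaining sites with the highest control levels were assigned to genes of many kinds. At the site over the LOC124904243 window, 36127 bp from NDUFV2, which encodes a subunit of respiratory complex I, the controls had 49.5 and 51.1 CPM and shIRF4 15.7 and 17.6 CPM. A wide interval 3612 bp away (chr18:9069306-9071062) fell nearly as far without meeting the rule, from 46.6 and 47 CPM to 17.6 and 20.6 CPM (log2 fold change -1.36, SE 0.09, edgeR adjusted p = 4.69e-10), while the interval over the start of NDUFV2 (chr18:9101808-9103408) did not pass, at 58.3 and 55.5 CPM and then 61.6 and 60.6 CPM (log2 fold change 0.06, SE 0.07, edgeR adjusted p = 0.591). Further sites of this kind were assigned to CLPTM1L, CLINT1, a clathrin interactor, KCNV2, a potassium channel subunit, CCDC93, IGF2R, the receptor for mannose 6-phosphate and IGF2, and CIMIP5, with mean control levels from 31.4 to 44.4 CPM and mean shIRF4 levels from 9.01 to 13.7 CPM. At CCDC93 (chr2:117918338-117919335) the shIRF4 libraries were farthest apart among them, at 6.02 and 12.1 CPM, below controls of 36.4 and 33.2 CPM.

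The 10 sites with the lowest ratios had mean control levels from 3.3 to 13.2 CPM. At KIF5C, a kinesin heavy chain gene (chr2:148944561-148944848), the controls had 4.36 and 3.45 CPM (53 and 47 reads) and shIRF4 0.334 and 0.219 CPM (6 and 2 reads), a 14.1-fold difference of means that rests on 8 reads in shIRF4. At ENPP5 (chr6:46175532-46175818) the controls had 4.61 and 4.63 CPM and shIRF4 0.613 and 0.549 CPM. The strongest of the 10 was inside LARS1, which encodes the cytosolic leucyl-tRNA synthetase (chr5:146173546-146174164), with 13.2 and 13.2 CPM and then 2.01 and 2.19 CPM. At ENPP5 and LARS1 the libraries of each group lay close together. The other 7 were inside GATAD2B, SGCZ, OXR1, CMKLR1, the chemerin receptor gene, and BTBD9, 53212 bp from GPR45, and at chr1:166298010-166298331 with no protein-coding gene within 100 kb. Their mean control levels ran from 3.3 to 8.05 CPM and their mean shIRF4 levels from 0.497 to 1.35 CPM. Of the other intervals assigned to these genes, 0 of 6 at KIF5C and 0 of 2 at LARS1 were called in either direction. Those lower were 4 of 11 at OXR1, 3 of 9 at GATAD2B, 2 of 5 at BTBD9, 2 of 5 at GPR45, 2 of 2 at CMKLR1 and 1 of 2 at ENPP5, against 15.0% of all intervals that are not sites. At SGCZ 2 of 4 were higher, and at BTBD9 and ENPP5 1 each, against 7.31%.

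Just inside the threshold, CLDN14, DRAM1, GABARAPL2, SP5 and chr12:89845402-89845768 had ratios of 0.399 or 0.4 as rounded, with mean control levels from 3.59 to 13.3 CPM. Just outside it, MKLN1, KCNN2, CHID1 and 2 intervals without a gene had ratios of 0.4 as rounded.

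Closed sites were then read against lists of genes tied to IRF4, B cells and lymphoma, which were chosen with earlier results of these data known. The plasma cell program had 2 closed sites among 85 eligible intervals (2.35%), both at ELL2, and the NF-kB list 3 among 112 (2.68%), at TNFAIP3 and NFKB1. The B cell identity list had 2 among 258 (0.775%), both at BACH2, the list of IRF4 and its partner factors 1 among 132 (0.758%), at ETS1, the germinal centre list 1 among 158 (0.633%), at ASB13, and the T cell markers 1 among 23 (4.35%), at CD8A. No closed site was among the 261 eligible intervals of the ABC lymphoma signature, the 182 of B cell receptor and MYD88 signalling, the 166 of cell death regulators or the 41 of the type I interferon response, or among those of the B cell, NK cell, myeloid, or epithelial and fibroblast markers. Over all eligible intervals the share was 0.810%, so these counts of 0 to 3 are small. More widely, 28% of the 93 tested intervals of the plasma cell program were lower and 4.3% higher in shIRF4, and 22.5% of the 307 of the ABC signature were lower and 8.79% higher, against 15.5% and 7.26% of all tested intervals. Shares lower near these were found for markers of other cell types, 24.1% of 29 for T cells and 25% of 16 for NK cells. The germinal centre list had 14.9% of 208 lower and 20.7% higher, and the interferon list 7.69% of 52 lower and 40.4% higher.

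ELL2 encodes an elongation factor of RNA polymerase II that helps plasma cells make secreted immunoglobulin. Its stronger site (chr5:95927883-95928625, inside the gene) had 12.7 and 13.4 CPM in the controls and 1.73 and 3.4 CPM in shIRF4, a mean of 13.1 ± 0.547 against 2.56 ± 1.18 (SD, n = 2), or 5.09-fold. The weaker (chr5:95925988-95926212) had 3.29 and 3.82 CPM, near the floor of the rule, and then 0.891 and 0.329 CPM (16 and 3 reads). The groups stood far apart at both, which the rule sets. The shIRF4 libraries differed from each other and in opposite order, which at the weaker site rests on these few reads. None of the 4 other tested intervals assigned to ELL2 was called lower or higher, and their median log2 fold change was 0.18.

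TNFAIP3 encodes A20, an inhibitor of NF-kB signalling. Its sites lay 37224 and 38708 bp beyond the gene. At the weaker (chr6:137920394-137920678) the controls had 5.6 and 5.22 CPM and shIRF4 1.45 and 1.1 CPM, and at the stronger (chr6:137921808-137922233) 8.64 and 8.16 CPM and then 1.84 and 1.76 CPM. Both groups were tight at both sites. Of the 10 other tested intervals assigned to TNFAIP3, 5 were lower and none higher, with log2 fold changes from -1.07 to -0.90 among those called. The interval over the gene start (chr6:137866567-137868348) was not called, at 25 and 23.9 CPM and then 26 and 26.4 CPM (log2 fold change 0.05, SE 0.09, edgeR adjusted p = 0.736).

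BACH2 encodes a repressor that holds back plasma cell differentiation. Its stronger site (chr6:90251396-90251766, inside the gene) had 4.28 and 4.19 CPM in the controls and 1.34 and 1.65 CPM in shIRF4, and the other (chr6:90214593-90214839) 4.44 and 3.23 CPM and then 0.78 and 1.21 CPM. Their ratios were 0.393 and 0.373, near the threshold of 0.4, and the control value of 3.23 CPM was near the floor of the rule. The 15 other tested intervals assigned to BACH2 moved in both directions, 2 lower and 3 higher. The interval over its start was not called (log2 fold change 0.15, SE 0.10, edgeR adjusted p = 0.316).

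The other list genes had 1 site each. NFKB1 encodes the precursor of the NF-kB subunit p50, and its site inside the gene (chr4:102573222-102573513) had 4.2 and 4.56 CPM in the controls and 1.67 and 1.54 CPM in shIRF4. ETS1 encodes an ETS factor, and its site 87592 bp away (chr11:128371034-128371312) had 3.04 and 3.82 CPM and then 1.17 and 0.988 CPM, near the floor of the rule. ASB13, a gene of a SOCS box protein, had a site 55060 bp away (chr10:5583483-5584131) with 10 and 10.4 CPM and then 2.9 and 3.73 CPM. The site at CD8A, a T cell co-receptor gene, lay 515 bp beyond its end (chr2:86783891-86784289) with 8.56 and 7.64 CPM and then 2.67 and 2.85 CPM. The ratios were 0.398 at NFKB1, 0.384 at ETS1, 0.372 at ASB13 and 0.373 at CD8A, all near the threshold of 0.4. The 2 control libraries differed by less than the groups did at all 4. For the shIRF4 pair the rule sets this. Among other tested intervals, 6 of 18 at ETS1, 3 of 8 at ASB13, 2 of 9 at NFKB1 and 0 of 3 at CD8A were lower, and 1 at ETS1 was higher, against 15.0% lower and 7.31% higher over all intervals that are not sites.

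**Figure D4:**
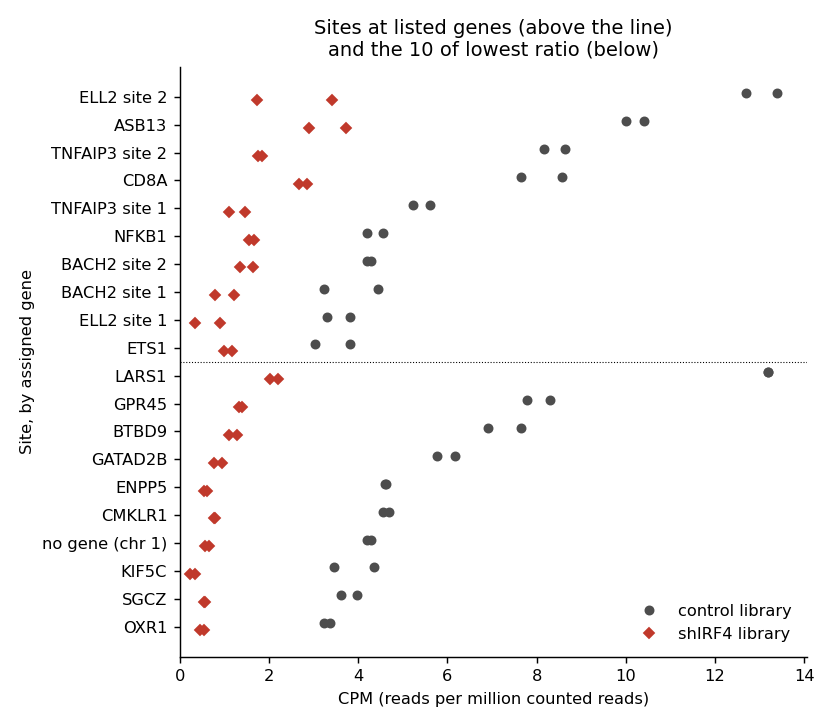
CPM of each library at the sites assigned to list genes (above the dotted line) and at the 10 sites with the lowest ratio (below it), ordered within each set by mean control level. Grey circles are the 2 control and red diamonds the 2 shIRF4 libraries, and the groups do not overlap at any site, which the rule sets. The pairs are tight at most sites, and the shIRF4 pair stands apart at the stronger ELL2 site, at 1.73 and 3.4 CPM.

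The intervals beside the sites, which the rule did not use, were lower as well. Within 10 kb of a closed site, midpoint to midpoint, lay 482 tested intervals that were not sites. Of these, 220 were lower in shIRF4 by the edgeR test (45.6%) and 14 higher (2.9%), against 15.0% and 7.31% of all tested intervals that were not sites. Restricted to intervals at 3 CPM or more in both controls, 47.9% of 424 were lower, against 17.6% of 58189. DESeq2 called fewer intervals, 26.3% of the neighbours and 4.45% of all that were not sites.

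The share fell off with distance. It was 71.4% of 49 intervals within 1 kb (exact 95% binomial interval 56.7 to 83.4%), 60.9% of 64 at 1 to 2 kb, 45.2% of 157 at 2 to 5 kb, 35.4% of 212 at 5 to 10 kb, 28.8% of 510 at 10 to 25 kb and 21.5% of 824 at 25 to 50 kb. From 100 to 250 kb it was 15.4%, close to the 15.0% of all. The median log2 fold change followed, from -1.07 within 1 kb through -0.39 at 2 to 5 kb to 0.01 at 100 to 250 kb. Neighbours share sites and stretches of DNA and are not independent, so the binomial intervals are too narrow. Width and level differed little between the classes of distance, with median widths of 418 to 565 bp and median control levels of 5.46 to 7.17 CPM. Near the opened sites the calls went the other way: 20 of 62 intervals within 10 kb were higher (32.3%) and 5 lower (8.06%).

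**Figure D5:**
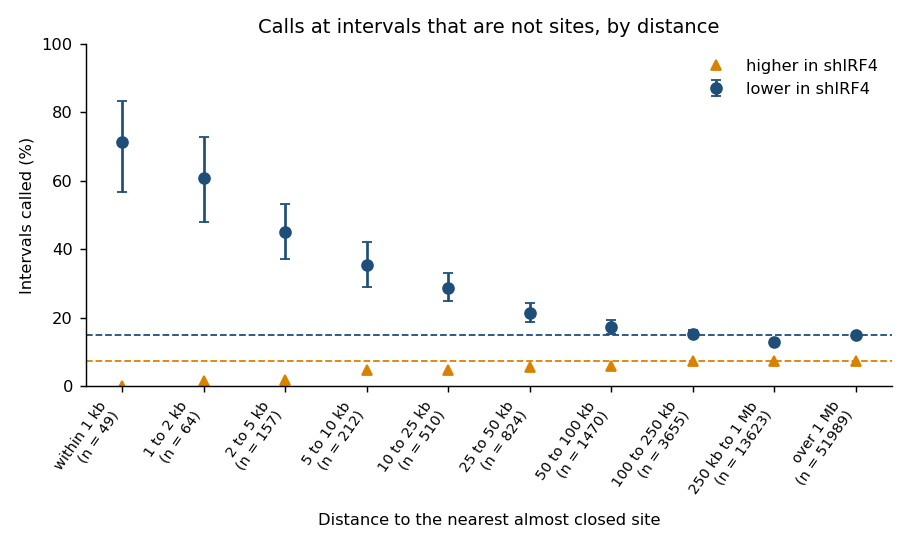
Share of tested intervals that are not closed sites and were called lower (blue, with exact 95% binomial intervals) or higher (orange) by edgeR, by distance to the nearest closed site, with the number of intervals under each class. Dashed lines mark the shares over all such intervals, 15.0% lower and 7.31% higher. The share lower goes from 71.4% within 1 kb to 15.4% at 100 to 250 kb.

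Not every site had company. Of the 475 sites, 210 had no tested neighbour within 10 kb. Of the 265 with at least 1, 166 had a lower neighbour, 14 had a higher one and 91 had none that was called. Higher neighbours included the interval over the start of ENPP5 (chr6:46170547-46171511), 4646 bp from that gene's closed site. Its mean went up from 19.7 ± 3.16 to 25 ± 1.98 CPM (mean ± SD of 2 libraries), a log2 fold change of 0.32 (SE 0.10, edgeR adjusted p = 0.03), although its control libraries, at 21.9 and 17.4 CPM, came close to the lower shIRF4 library at 23.6 CPM. An interval inside EXOC2, an exocyst subunit gene (chr6:490230-491077), rose from 6.13 ± 0.169 to 11.3 ± 0.862 CPM at 6069 bp from a closed site (log2 fold change 0.84, SE 0.14, edgeR adjusted p = 0.000124). Losses and gains thus stood within a few kb of each other at these genes.

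Gene starts near the sites were called at about the share of gene starts in general. Of 163 tested gene-start intervals within 50 kb of a closed site, 6 were lower (3.68%) and 7 higher, against 3.28% lower and 4.51% higher among all gene-start intervals. Of the 193 gene-start intervals of genes with an assigned site, 8 were lower (4.15%) and 8 higher. Within 10 kb of a closed site, 2 of 29 gene-start intervals were lower (6.9%) and 1 higher. Of the neighbours within 10 kb that lay over 5 kb from any protein-coding gene end 53.1% were lower, against 17.7% of all such distal intervals that are not sites. For genes with an assigned site, the gene-start intervals lower in shIRF4 were at MYO3B (2 intervals), NFIB, MPP7, KCNA2, PTGDR, ZPBP and CCDC88C. Those higher were at ERN1, PCNX1, GABARAPL2, ARID5B, DPF3, ELMO2, ENPP5 and TMEM154. Not all were near a site: the distance to the nearest closed site ran from 3591 bp at KCNA2 to 503058 bp at MYO3B. All these genes are named because they were the ones called, and thus after their values were seen. The largest change was at MYO3B, an unconventional myosin gene (chr2:170178328-170178811), 502034 bp from the nearest closed site. That interval had 5.61 ± 0.485 CPM in the controls and 2.6 ± 0.575 CPM in shIRF4 (mean ± SD of 2 libraries). Its log2 fold change was -1.09 (SE 0.21, edgeR adjusted p = 0.00048). At PTGDR, a prostaglandin D2 receptor gene (chr14:52267326-52268770), the level fell from 26.3 ± 0.952 to 18.9 ± 0.121 CPM (log2 fold change -0.53, SE 0.09, edgeR adjusted p = 0.000164). The log2 fold changes ran from -1.09 to -0.27 at the lower starts and from 0.20 to 0.45 at the higher ones. RNA levels were not analysed here.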

How the data were processed

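ATAC-seq libraries of TMD8 nuclei (2 control, 2 shIRF4) were used, grouped by their titles. The authors deposited unnormalized counts for each interval. Per the file headers, featureCounts 2.0.0 made them from the 5' ends of paired reads, with duplicates ignored and fractions requested for multi-mapping reads. All counts were whole. Ignoring duplicates can cap counts in short, dense intervals. The submitters' processing notes name hg38. The aligner, peak caller and any transposase shift are not given in the sources used here.

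CPM for the rule used library totals without scaling. Of 73135 intervals, filterByExpr removed 107 and left 73028. These were tested with edgeR 4.0.16 (limma 3.58.1, R 4.3.3): TMM factors 0.981 to 1.03, a two-sided quasi-likelihood F-test (legacy=FALSE, robust=FALSE) and a model of all 4 libraries on group alone. Benjamini-Hochberg adjustment ran over the whole table, and intervals with an adjusted p under 0.05 are called lower or higher. The SE is the log2 fold change over the square root of F. DESeq2 1.42.0 was an alternative. The control libraries differed by little more than counting error (chi-square per degree of freedom 1.043, p = 1.771e-16 by a chi-square test, against 2.012 for the shIRF4 pair) and were kept as separate libraries.

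Intervals were assigned to the protein-coding gene holding the midpoint, else to the nearest gene end within 100 kb, from a RefSeq table (GRCh38.p14, 20037 protein-coding genes). Promoter windows run from 250 bases before to 50 after a start. The members and the 14 gene lists (187 of 188 genes in the table) were chosen with earlier results of these data known. Sites named are those at list genes, the 10 of highest control level, the 10 of lowest ratio, genes or runs with 3 or more sites, the 10 gene-end sites of highest control level, and the 5 on each side of the threshold. Sites with no assigned gene are given by position. Genes without an approved symbol were left out by this rule, except the gene whose promoter a site overlapped. The sequences of distal sites, their GC content and their motifs were not analysed here.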

Additional observations from a re-analysis of the deposited data

How the results depend on the processing

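Of 58 alternative settings, 35 kept the value near the main one, 23 moved it and 0 reversed it. DESeq2 called 3710 intervals lower and 856 higher, against 11347 and 5302 by edgeR, and 26.3% of the neighbours lower, against 45.6%. It called 474 of the 475 sites. Leaving out each library in turn gave 6405 to 13155 intervals lower and 2638 to 6842 higher, with the fewest of both without shIRF4 replicate 1 and with 2890 and 2832 higher without control replicate 1 and control replicate 2, and 34.2 to 45.9% of the neighbours lower (8.17 to 17.5% of all intervals that are not sites). The lone library is assumed there to vary like the other group. The rule over 3 libraries, which asks for less, gave 663 to 1064 sites. Library totals in place of TMM factors moved the median log2 fold change of all intervals from 0.01 to 0.06 and the share of calls that were lower from 68.2 to 58%. A ratio below 0.3 left 113 sites and one below 0.5 gave 1261, while a floor of 5 CPM left 290 sites with a median width of 579 bp. Within 5 kb of a site 53.7% of neighbours were lower and within 50 kb 30%. Within 5 kb of a gene end lay 10.9% of sites (36.1% of eligible intervals), within 1 kb of an end of any gene, coding or not, 6.74% (28.1%), and over a promoter window, an alternative chosen after seeing the data, 0.221%. Crossing the pairs of libraries gave held-out median ratios of 0.355 and 0.42, against 0.416 and 0.36. With a replicate block 11388 intervals were lower and 5182 higher, with 45.6% of neighbours lower. The same-number libraries did not deviate together (correlation -0.02856). Because the control libraries differed by little more than counting error, this correlation cannot tell whether the numbers pair the libraries. Summing the controls to 1 sample, chosen after seeing the data, gave 9792 lower and 3848 higher. Depth limits the shIRF4 values: as few as 2 reads lay behind a site.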

Other observations

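The rule was limited to autosomes. On chromosome X, 9 of the 1145 intervals at 3 CPM or more in both controls met the same thresholds (0.786%, against 0.810% on the autosomes). The strongest was assigned to DHRSX (chrX:2178291-2179900), with 57.1 and 58 CPM in the controls and 14.5 and 22.3 CPM in shIRF4. One was assigned to TLR7, a receptor for single-stranded RNA that signals through MYD88 (chrX:12892017-12892561), with 7.49 and 8.89 CPM and then 2.34 and 2.74 CPM. Others were assigned to FRMPD4, ZNF81, KIF4A, LHFPL1 and RBMX, and 1 had no protein-coding gene within 100 kb. These genes are named after their values were seen, and both shIRF4 libraries were below both controls at each of the 9, as the thresholds require.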
